A study of Pimephales promelas with 20 samples.

Results

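Among the piRNA reads of whole fathead minnow larvae, 56 forward-strand entries were set apart by how strongly their levels differed from one library to the next. They were the entries of the forward piRNA table that were not also entries of the reverse table, with a standard deviation (SD) over 15 libraries of more than 2 on the scale of log2(RPM + 0.5). RPM (reads per M) is the read count scaled by the total of the forward piRNA counts of the library. The 56 were part of 1896 forward-only entries, of 2025 forward piRNA entries, and of 3194 entries in the 4 tables of the series. None of the 129 entries present in both piRNA tables had an SD over 2 in the forward table.

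The larvae of Pimephales promelas, a small fish of the carp family, were kept in still water from 48 to 96 h after hatching. The control group received 0 ng/L and the exposed group 10 ng/L of 17α-ethinylestradiol (EE2), a synthetic estrogen, for 48 h. Forward piRNA counts were used from 8 control libraries (1, 2, 3, 4, 6, 7, 9 and 10) and 7 EE2 libraries (1, 4, 5, 6, 7, 8 and 9). Each library was made from the total RNA of whole larvae. Strain, sex, the number of larvae behind each library and the vessels they came from are not stated in the labels. The spread behind each p-value is therefore that between libraries, which may be technical.

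piRNAs are small RNAs bound by PIWI proteins. They guide these proteins to matching transcripts, above all those of transposons, which are then cut or silenced, and in zebrafish the PIWI proteins Ziwi and Zili act in germ cells. Reads of the fathead minnow were counted here on piRNA sequences of the zebrafish (Danio rerio), a related species, so an entry name such as piR-dre-644638 is that of a zebrafish sequence to which minnow reads matched. Neither targets nor genome positions are paired with these names in the files used here, and sequences were not used. In RNA of whole animals, fewer cells that make a piRNA and less of it per cell cannot be told apart.

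The forward piRNA counts per library ran from 1019271 (EE2 7) to 3082752 (EE2 6). The 56 entries were a small part of them, at 0.0161% to 0.754% in controls (median 0.0523%, n = 8) and 0.0169% to 0.441% after EE2 (median 0.0374%, n = 7). Control 2 held the highest share and EE2 5 the next, followed by control 7 at 0.346%. Of the 56 entries, 39 had 0 reads in at least 1 library. A count of 0 allows up to 3 reads, which is 0.973 to 2.94 RPM depending on the library, for counting error only. The most zeros were in the shallowest libraries, with 22 entries at 0 in EE2 7 and 21 in control 6 (1296725 counts). Depth alone did not order the zeros, since EE2 1, with 2079211 counts, had 20 and control 10, with 1502410, had 2. The part of depth in the low levels was not tested.

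The SD that chose the entries ran from 2.00 to 3.11, against a median of 0.766 over all 1896 forward-only entries and a 90th percentile of 1.40. The highest SD belonged to piR-dre-943955. The entries just inside the threshold were piR-dre-323024 (SD 2.0013) and piR-dre-1157637 (2.0098), and those just outside were piR-dre-595667 (1.970) and piR-dre-212541 (1.967). The 56 entries held from 117 reads (piR-dre-2432) to 6679 reads (piR-dre-644638) over the 15 libraries, with a median of 444, against 817 for all forward entries. For most of the 56 entries the spread was also wide within each group. The SD was over 2 within the 8 controls alone for 53 entries and within the 7 EE2 libraries alone for 49, and 47 passed it in both. piR-dre-195477 passed it in neither, with 0.43 in controls and 1.60 after EE2. These SDs use the values that chose the entries, and many of the entries share a profile, as described below. The counts are thus a description.

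**Figure D1:**
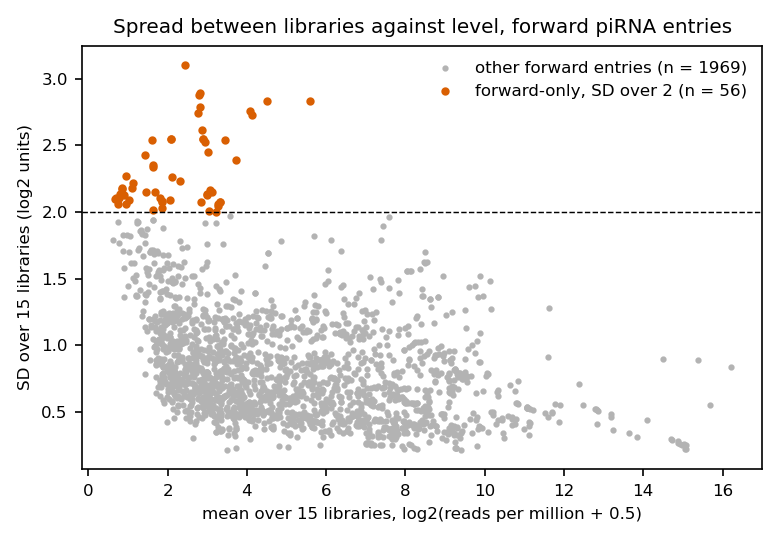
SD over 15 libraries against mean level for each forward piRNA entry, both on the scale of log2(RPM + 0.5); orange points are the 56 forward-only entries with an SD over 2 (dashed line), grey points the 1969 other entries. The 56 entries have low to middle mean levels, and piR-dre-943955 has the highest SD, at 3.11.

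The 56 entries collapsed into 23 groups of near-identical profiles, in which every pair of entries had a Pearson correlation of at least 0.95 over the 15 libraries. These groups joined into 7 patterns at a mean correlation of at least 0.7. Numbered by size, pattern 1 took 45 entries in 16 groups, pattern 2 took 4 entries in 1 group, patterns 3 and 4 took 2 entries each, and patterns 5 to 7 were 1 entry each. Within the largest groups some entries were nearly the same measurement: piR-dre-392857 and piR-dre-932141 had identical counts in all 15 libraries, and piR-dre-2175, piR-dre-2176 and piR-dre-2177, whose numbers follow each other, differed by at most 2 reads in any library. Read sharing among them was not tested, so the number of entries in a pattern is not a number of separate RNAs.

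**Figure D2:**
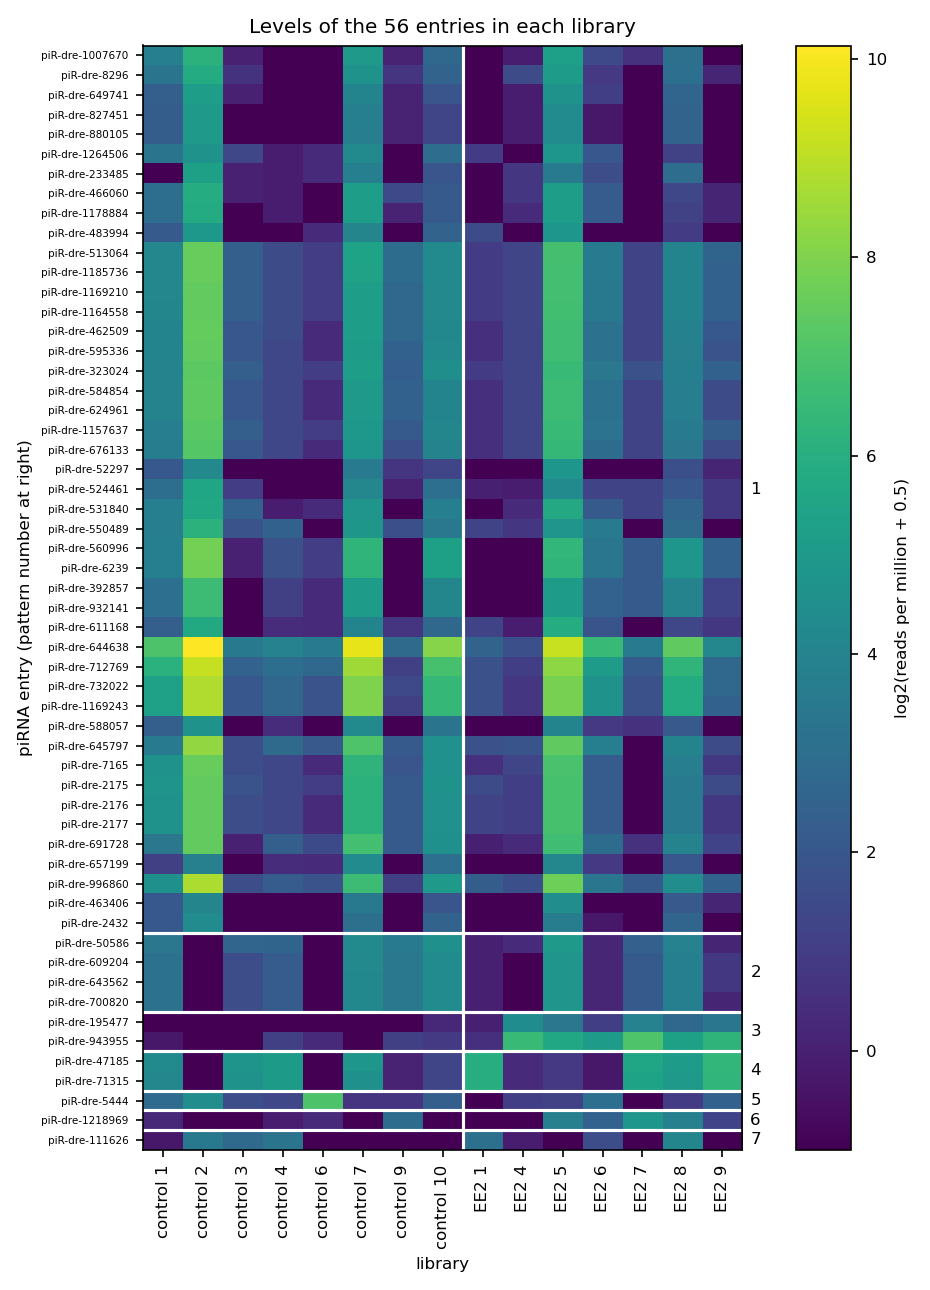
Level of each of the 56 entries (rows, grouped by pattern 1 to 7 as numbered at the right) in each of 15 libraries (columns, 8 controls left of the white line and 7 EE2 libraries right of it), as log2(RPM + 0.5). In pattern 1 the columns of control 2, control 7 and EE2 5 are the brightest in all 45 rows, while control 2 is dark in the rows of patterns 2, 3 and 4.

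Pattern 1 was led by piR-dre-644638, the entry with most reads. Its levels in controls were 1125 RPM in control 2, 837 in control 7, 278 in control 10 and 130 in control 1, and 14.7, 11.6, 10.8 and 6.68 in controls 4, 6, 3 and 9. After EE2 they were 597 in EE2 5, 172 in EE2 8 and 92.1 in EE2 6, and 17.3, 11.8, 5.29 and 2.80 in EE2 9, 7, 1 and 4. The widest step in this order, of 2.38 log2 units, lay between EE2 9 and EE2 6, so that 7 libraries stood above it and 8 below, with controls and EE2 libraries on both sides. Above the step the levels were not alike either: they spread from 92.1 to 1125 RPM.

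The other 44 entries of the pattern had correlations of 0.83 to 0.99 with piR-dre-644638 (median 0.93 with itself included, over 15 libraries, in each of which the entries share the RNA and the library total). Control 2, control 7 and EE2 5 were the 3 highest libraries for all 45 entries. For 34 of them the 7 highest libraries were the same as for piR-dre-644638, and for 41 the same 6 stayed ahead when EE2 6 was left aside. These counts follow in part from how the pattern was built and are a description. Summed over the 45 entries, control 2 had 7510 RPM, EE2 5 had 4215 and control 7 had 3336, against 50.02 in the lowest library, EE2 1. Below the step many entries were at 0 reads, 20 of 45 in EE2 7, 18 in EE2 1 and 13 in control 6.

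Within this pattern the groups differed in how they split their reads over the 3 highest libraries. The largest near-identical group had 11 entries, led by piR-dre-513064, with 656 to 890 reads each and correlations of at least 0.987 within the group. piR-dre-513064 was at 188 RPM in control 2, 114 in EE2 5 and 43.1 in control 7, so control 2 was 4.37 times control 7. For piR-dre-644638 that ratio was 1.34. Over the 45 entries it ran from 0.672 (piR-dre-657199) to 5.25 (piR-dre-624961), with a median of 2.47, and all 11 entries of the piR-dre-513064 group lay at 4.32 or above. Control 2 was the highest library for 39 entries, EE2 5 for 5 and control 7 for 1.

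The reads of piR-dre-644638 relative to other entries also varied by group. In libraries where both entries had at least 10 reads, piR-dre-644638 had 1.89 to 2.80 times the reads of piR-dre-712769 (10 libraries), which lies in its own near-identical group. It had 5.09 to 10.7 times those of piR-dre-560996 (7 libraries), the lead of another group. Against piR-dre-513064 the ratio ran from 0.923 to 19.4 (8 libraries), and against piR-dre-645797 up to 11.6 (8 libraries). Since the groups were formed from these same values, a narrower range within a group follows in part from the grouping.

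A pair of further groups of the pattern had 5 entries each, with leads at lower levels than piR-dre-644638. piR-dre-645797 ran from 2.58 to 323 RPM in controls (median 9.00) and from 0 to 173 after EE2 (median 3.20). piR-dre-1007670 ran from 0 to 70.3 in controls (median 3.27) and from 0 to 38.8 after EE2 (median 0.981), with 0 reads in 4 libraries. For both, control 2 was the highest control and EE2 5 the highest EE2 library.

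Pattern 2 held piR-dre-50586, piR-dre-609204, piR-dre-643562 and piR-dre-700820, of which the last 3 differed by at most 1 read in any library. piR-dre-50586 was highest in EE2 5, at 30.8 RPM, then 23.3 in control 10, 19.4 in control 7, 14.8 in EE2 8, 11.1 in control 9 and 10.3 in control 1. It was at 5.67, 5.44 and 4.91 in control 3, control 4 and EE2 7. The other 6 libraries were below 0.81, with 0 reads in control 2 and control 6. Control 2, the highest library for most entries of pattern 1, thus had 0 reads of all 4 entries of pattern 2, and control 9, near the bottom for piR-dre-644638, was among the higher ones. EE2 5, control 10, control 7, EE2 8 and control 1 were high for both piR-dre-50586 and piR-dre-644638. The correlation with piR-dre-644638 was 0.37 for piR-dre-50586 and up to 0.45 within pattern 2.

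**Figure D3:**
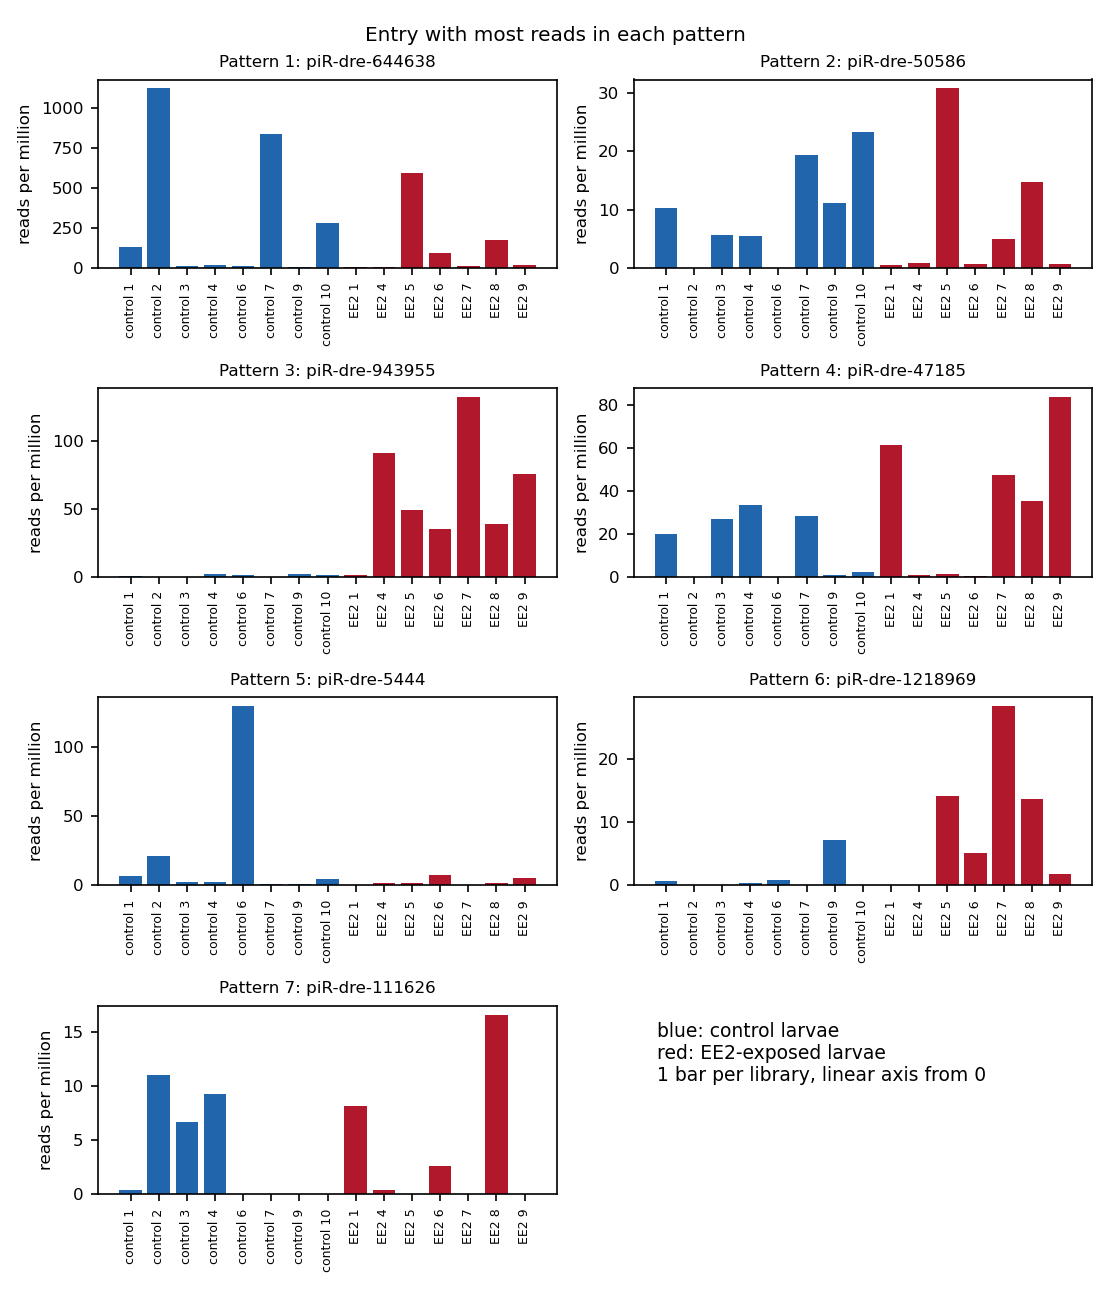
RPM of the entry with most reads in each of the 7 patterns, 1 bar per library (blue, 8 controls; red, 7 EE2 libraries), each panel with its own linear axis from 0. The sets of high libraries differ between patterns but overlap in part. Control 2, control 7 and EE2 5 are highest for piR-dre-644638, and control 7 and EE2 5 are also high for piR-dre-50586. High libraries are 8 of both groups for piR-dre-47185, 6 EE2 libraries for piR-dre-943955 and control 6 for piR-dre-5444.

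Pattern 4, piR-dre-47185 and piR-dre-71315, fell into a higher and a lower set of libraries that cut across the groups. piR-dre-47185 was at 33.5, 28.0, 26.8 and 19.6 RPM in controls 4, 7, 3 and 1, and at 2.00 or below in controls 10, 9, 2 and 6. After EE2 it was at 83.4, 61.1, 47.1 and 34.9 in EE2 9, 1, 7 and 8, and at 1.32 or below in EE2 5, 4 and 6. The 8 libraries above and the 7 below were separated by a step of 3.01 log2 units, from 2.00 to 19.6 RPM, and both groups had 4 libraries above it. piR-dre-71315 was a near copy: in the 8 libraries with at least 10 reads of both it had 0.846 to 0.992 of the reads of piR-dre-47185 (median 0.939), and their correlation was over 0.999. The high libraries of pattern 4 were only in part those of piR-dre-644638, with control 1, control 7 and EE2 8 high in both. Control 2 had 0 reads of both entries of pattern 4. Control 3, control 4 and EE2 1, low for piR-dre-644638, were high here. The correlation of piR-dre-47185 with piR-dre-644638 was -0.18.

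Pattern 3 followed the groups except in 1 library. piR-dre-943955 was at 0 to 1.67 RPM in the 8 controls (median 0.552, 11 reads in all). After EE2 it was at 132, 91.2, 76.0, 49.3, 39.1 and 35.0 in EE2 7, 4, 9, 5, 8 and 6, and at 0.962 in EE2 1, from 2 reads. EE2 1 lay inside the control range, so the groups overlapped. piR-dre-195477 had 1 read in controls, in control 10, and 129 reads after EE2, with 0.481 RPM in EE2 1 (1 read) and 1.62 to 20.8 in the other 6. The pair had a correlation of 0.949, just below the 0.95 asked of a near-identical group, so pattern 3 was 2 groups. Where both had at least 10 reads, piR-dre-943955 had 4.38 to 9.00 times the reads of piR-dre-195477 (5 libraries).

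Patterns 5 to 7 were single entries. piR-dre-5444 was at 130 RPM in control 6 and 21.4 in control 2, and at 7.79 or below in the other 13 libraries, and without control 2, control 6, EE2 1 or EE2 7 its SD was no longer over 2. piR-dre-1218969 was at 28.5, 14.1, 13.8 and 5.19 in EE2 7, 5, 8 and 6 and at 7.24 in control 9, with 1.85 or less in the other 10 libraries, 6 of them at 0. piR-dre-111626 was at 16.6 in EE2 8, 10.99 in control 2, 9.21 in control 4, 8.18 in EE2 1, 6.70 in control 3 and 2.60 in EE2 6, and below 0.41 in the other 9, 7 of them at 0. Its 6 higher libraries were split between the groups, 3 and 3. The SD of piR-dre-1218969 was no longer over 2 without EE2 7, and that of piR-dre-111626 without control 2 or EE2 8.

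The miRNA table was not used to choose the entries, and the reverse-strand piRNA table only to leave out entries present in both piRNA tables. Both held profiles like that of piR-dre-644638. Of 584 reverse piRNA entries, 58 had a correlation of at least 0.8 with it over the 15 libraries, as did 41 of 528 miRNA entries and 100 of the 1969 other forward piRNA entries. The same counts were 1, 3 and 0 for piR-dre-50586, 1, 0 and 0 for piR-dre-943955, 0, 0 and 2 for piR-dre-5444, and 0 in each table for piR-dre-47185, piR-dre-1218969 and piR-dre-111626. All these correlations are descriptions, between values from the same RNA and the same libraries, and entries that share reads would be counted more than once.

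The closest reverse entry to piR-dre-644638 was piR-dre-1067962 (r = 0.96, n = 15), an entry of the reverse table alone. It was at 763 RPM, scaled by the forward piRNA counts, in control 2, 613 in control 7, 337 in EE2 5, 203 in control 10, 161 in EE2 8, 112 in control 1 and 62.6 in EE2 6. The other 8 libraries were at 21.2 to 54.9, so the same 7 libraries were the highest. The closest miRNA was novelMiR_15671 (r = 0.95, n = 15), a numbered entry that the files do not pair with a known miRNA. Scaled by the forward miRNA counts instead, it was at an RPM of 7.02 in control 2, 4.55 in EE2 5, 4.53 in control 7, 1.90 in control 10, 1.44 in EE2 6, 1.27 in control 1 and 0.582 in EE2 8, and at 0.0517 to 0.300 in the other 8. Again the same 7 libraries were the highest, at low counts: 14 to 95 reads in them and 1 to 5 in the others. In the 5 libraries that have a miRNA but no piRNA column, novelMiR_15671 was at an RPM of 0.0612, 0.223, 0.377, 0.882 and 1.38 in control 5, EE2 2, EE2 3, EE2 10 and control 8.

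For patterns 2 and 3 fewer entries were alike. piR-dre-647570, of the reverse table alone, followed piR-dre-50586 (r = 0.98) nearly read for read, with 63 against 70 reads in EE2 5, 36 against 36 in control 7, 33 against 35 in control 10 and 0 against 0 in control 2 and control 6. piR-dre-1081409, also of the reverse table alone, followed piR-dre-943955 (r = 0.95), with 0 reads in 7 controls, 1 in control 10, 1 in EE2 1 and 7 to 64 in the other 6 EE2 libraries. Whether forward and reverse entries hold the same reads was not tested. The closest miRNAs to these leads had lower correlations, 0.83 for novelMiR_233 and 0.57 for novelMiR_1551. For piR-dre-47185 the closest reverse and miRNA entries were piR-dre-87954 (r = 0.68) and novelMiR_37397 (r = 0.70). For piR-dre-5444 they were piR-dre-885968 (r = 0.64) and novelMiR_28048 (r = 0.70). Among the other forward entries, piR-dre-214812 was closer to piR-dre-5444 (r = 0.86).

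**Figure D4:**
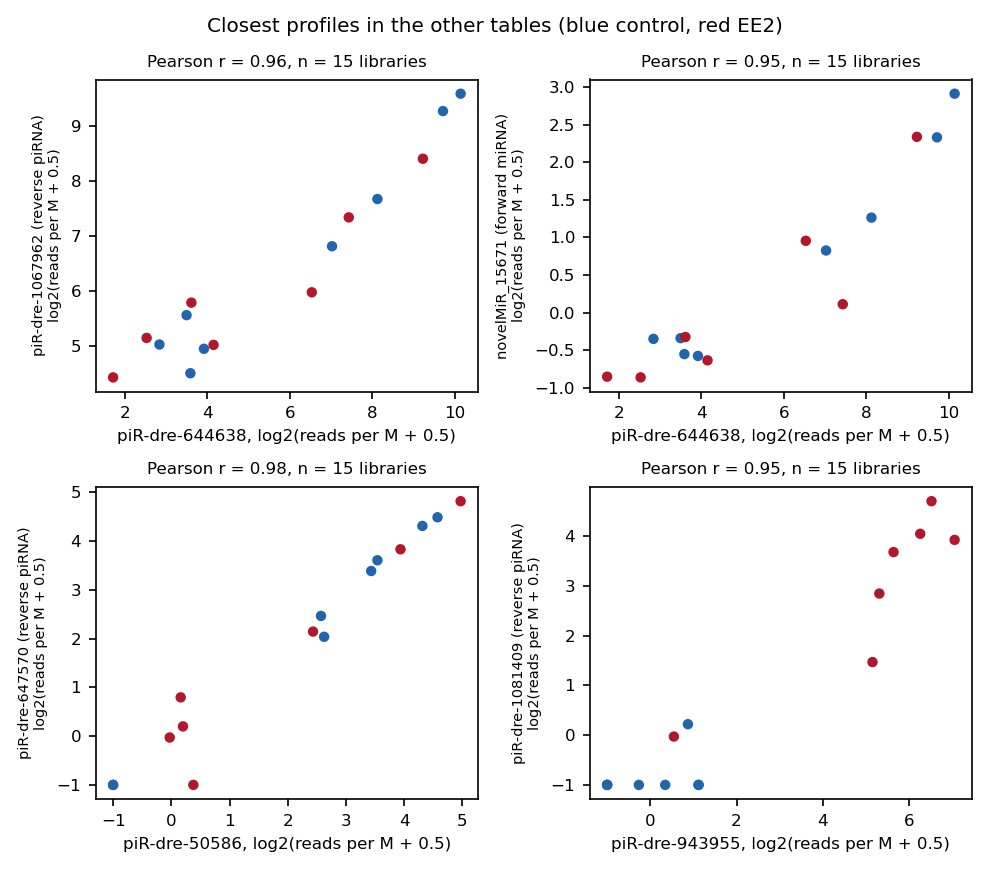
Level of 3 lead entries (x axis) against the closest entry of the reverse piRNA table or the miRNA table (y axis), both as log2(RPM + 0.5), 1 point per library (blue control, red EE2, n = 15). Points rise together in each panel, with r from 0.95 to 0.98, and the 7 libraries high in piR-dre-644638 stand apart at the right of both upper panels.

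EE2 was then compared with control for every forward piRNA entry, with edgeR's quasi-likelihood test on the counts and p-values adjusted over all 2025 entries. The SD that chose the 56 entries did not use the group labels, but a difference between the groups adds to it. The SD within controls and within EE2 was 0.43 and 1.60 for piR-dre-195477, and 0.96 and 2.17 for piR-dre-943955. That called entries lie among the 56 is thus not separate from how the 56 were chosen. Of the 56, 2 rose after EE2, both of pattern 3, and 0 fell; over all 2025 entries these same 2 were called, 0.0988%. The log2 fold change was 6.55 ± 0.85 (SE, n = 8 and 7) for piR-dre-943955 and 6.36 ± 0.88 for piR-dre-195477 (edgeR adjusted p = 0.00150 for both). For each, 7 of 7 EE2 libraries lay above the control median. EE2 1 did so with only 2 reads and 1 read in all, and lay within the control range of both. The size for piR-dre-195477 rests on 1 control read and on the small prior count that edgeR adds. At an unadjusted p under 0.05 there were 4 of the 56 entries (7.14%), against 5.09% of all entries.

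With edgeR's filter on low counts, 27 of the 56 entries were tested and 29 were not, among the latter both called entries; 0 of 1701 entries were called (0%), with an unadjusted p under 0.05 for 93, 0 of them among the 27. DESeq2 at its default settings, without edgeR's low-count filter, called 6 entries of the table (0.296%), including both. limma voom called 0 (0%), with an unadjusted p under 0.05 for 111 entries, adjusted p = 0.794 for piR-dre-943955 and 0.414 for piR-dre-195477 and 2 of the 56 among the 111. Without control 10, which held the control read of piR-dre-195477, that entry was no longer called (edgeR adjusted p = 0.112), while piR-dre-943955 was. With the replicate number as a block, over 10 libraries, edgeR called 1 entry (0.0494%), piR-dre-943955, with adjusted p = 0.0173, against 0.403 for piR-dre-195477.

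Pattern 1 did not pass the test between the groups. Of its 45 entries, 0 passed and 0 had an unadjusted p under 0.05 in edgeR. Fitted levels were lower after EE2 for 43 of 45, with a median log2 fold change of -0.83 against 0.03 over all forward entries, but with a median SE of 1.15. piR-dre-644638 had 6.68 to 1125 RPM in controls (median 72.1) and 2.80 to 597 after EE2 (median 17.3), a log2 fold change of -1.24 ± 1.22 (edgeR adjusted p = 0.806). Single libraries moved the median of the 45: without control 2 it was 0.05 and 22 of 45 were lower. Without EE2 5 it was -2.33, and 26 of 45 had an unadjusted p under 0.05 in edgeR, with 0 of the 45 called. Over all entries, 170 of 2025 had such a p without EE2 5. For piR-dre-644638 itself the log2 fold change ran from -2.47 to -0.58 with 1 library left out. Over the other alternatives it ran from -3.07 to -0.79. In the 10 libraries whose replicate numbers both groups share, the median of the 45 was -1.43 with the number as a block. There 1 of the 45 had an unadjusted p under 0.05 in edgeR, against 28 of all 2025 entries. Without the block, a fit added later, these values were -2.78, 18 and 65. Neither fit called any of the 45. DESeq2 gave 14 of the 45 an unadjusted p under 0.05, against 168 of all 2025 entries, and called 0 of the 45.

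The other patterns did not pass the test either. piR-dre-47185 had 0 to 33.5 RPM in controls (median 10.8) and 0.324 to 83.4 after EE2 (median 34.9), a log2 fold change of 1.38 ± 1.11 (edgeR adjusted p = 0.797). piR-dre-71315 gave 1.43 ± 1.10 with the same adjusted p. piR-dre-50586 had 0 to 23.3 in controls (median 7.98) and 0.481 to 30.8 after EE2 (median 0.7999), a log2 fold change of -0.25 ± 0.92 (edgeR adjusted p = 0.937). The largest fitted differences outside pattern 3 were 3.13 ± 1.09 for piR-dre-1218969, with 5 of 7 EE2 libraries above the control median (edgeR adjusted p = 0.620), and -2.84 ± 1.16 for piR-dre-5444, with 5 of 7 below it (adjusted p = 0.748). Without control 6 the value for piR-dre-5444 was -0.73. piR-dre-111626 gave 0.39 ± 1.10 (edgeR adjusted p = 0.922).

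**Figure D5:**
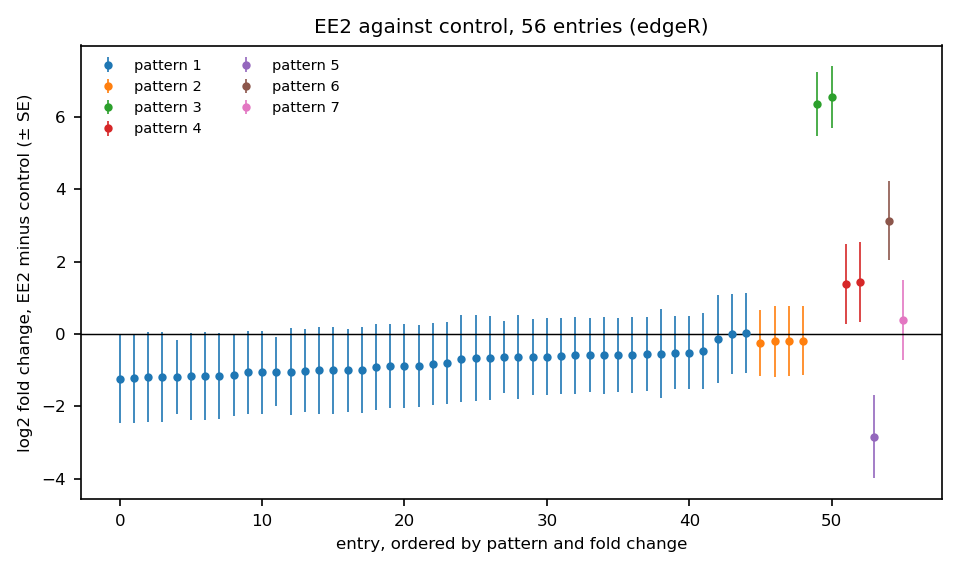
log2 fold change of EE2 over control (y axis) with its standard error for each of the 56 entries (x axis, ordered by pattern and size), from edgeR's quasi-likelihood fit over 15 libraries. The 2 entries of pattern 3 stand at 6.36 and 6.55, and the values of pattern 1 run from -1.24 to 0.04, with standard errors of 0.95 to 1.25.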

How the data were processed

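Small RNA reads of whole larvae were matched by the authors to zebrafish piRNA sequences, per the series' design text. Tools named in the submitters' processing notes are edgeR 3.26.8, limma 3.40.6, Bowtie 1.2.3 and bcl2fastq 2.19.1. How many mismatches were allowed, and how reads with several matches were counted, is not given in these sources; both bear on near-identical entries. The deposited tables hold raw read counts, with no normalization; F and R were taken as forward and reverse strand, which no label states. Every forward piRNA entry has at least 73 reads.

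RPM used the forward table total of the class, with 0.5 added before log2. Profiles were grouped by complete linkage (Pearson r of at least 0.95) and groups joined by average linkage (0.7), with scipy 1.17.1. The test of EE2 used edgeR 4.0.16 under R 4.3.3 (TMM, robust quasi-likelihood, Benjamini-Hochberg, threshold 0.05). Its SE was worked back from the test, as the absolute log2 fold change over the square root of the F statistic. It is approximate, above all for entries with few control reads. The low-count filter, which drops entries present in few libraries, was not used. A check on simulated counts, with large known changes and a capped spread between libraries, passed its limit. That limit did not ask that all known changes be recovered. Recovery for entries with as large a spread between libraries as the chosen entries was not tested. DESeq2 1.42.0, limma 3.58.1 (voom), other scalings and left-out libraries were alternatives.

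The members, lists and tests were chosen with earlier results of these data known. The entries named were the one with most reads in each pattern, up to 3 further groups of the larger patterns, the 5 lowest p-values, the ends of the ranges, and the closest reverse and miRNA entries for 5 patterns. Entries named as ends of a ratio, as near copies or to give one example of a group were chosen after their values were seen. Libraries of a group correlated at 0.821 to 0.954 (log2 CPM). Whether equal replicate numbers mark paired libraries is not stated in the labels. Deviations from the group means, between libraries of the 5 shared numbers, correlated at -0.254 to 0.241, which cannot settle it.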

Additional observations from a re-analysis of the deposited data

Results flagged for a closer look

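Within the control and EE2 groups, 34 sets of values were examined for a library standing apart from the rest by more than Dixon's 95% value, and 5 did. Chance gives about 1 in 20 sets, or 1.7 here, for separate sets of untied values. The sets were not all separate, since some named entries are near copies, and the entries were picked for their large spread. On the scale of log2(RPM + 0.5), piR-dre-943955 was lowest in EE2 1, at 0.55, with the next EE2 library at 5.15. piR-dre-1218969 was 2.95 in control 9 and at most 0.35 in the other controls. piR-dre-195477 was 0.22 in control 10, from 1 read, and -1 (0 reads) in the other controls. With all other controls tied at 0 reads, any read in control 10 would have set it apart. The share of forward piRNA counts on the 56 entries reached 0.754% in control 2, with control 7 following at 0.346%, and 0.441% in EE2 5, with EE2 8 following at 0.0985%.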

How the results depend on the processing

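The number of entries with an SD over 2 depends on how low counts are treated. It was 56, and 132, 25 and 4 with 0.1, 1 and 5 added before the log, 153 and 17 with an SD over 1.5 and 2.5, 51 with TMM scaling, and 31 (without control 2, 24 of them in the first pattern) to 60 with 1 library left out, with 37 without EE2 5. Without the 2 shallowest libraries, a choice made after seeing the data, it was 54. With 1 added before the log, the 25 entries were 22 of pattern 1, 1 of pattern 3 and 2 of pattern 4. Patterns 2, 5, 6 and 7 then had 0. With 5 added, all 4 were of pattern 1. Pattern 2 kept 2 of its 4 entries without control 2, without control 6 or without EE2 5. The 23 groups of near-identical profiles became 14 at a correlation of 0.90 and also 14 with single linkage. The number of entries called in the EE2 comparison was 2, and 0 with the filter, 6 with DESeq2, 0 with limma voom, and 1 (without control 10) to 3 with 1 library left out. With the replicate number as a block, over the 10 libraries whose numbers both groups share, 1 entry was called (piR-dre-943955). The same 10 libraries without the block, added later, gave 0. Whether the numbers mark pairs is not stated. Scaling by library totals alone moved the median of all entries from 0.03 to -0.21 (log2) and called the same 2. Of 368 refitted values for 15 named entries, 356 kept direction and side of the threshold, 6 lost their call (2 for piR-dre-943955 and 4 for piR-dre-195477), and 6 changed sign with 1 library left out, each of an entry that was not called. Most of the named entries were far from called, so the 356 say little about the 2 calls. Those 2 entries had 24 refits each, which leave out the filtered fit, where neither was tested. With 1 library left out the log2 fold change ran from -1.22 to 0.13 for piR-dre-50586, -0.58 to 0.86 for piR-dre-111626, -2.16 to 0.61 for piR-dre-513064, -2.10 to 0.50 for piR-dre-323024, -2.14 to 0.73 for piR-dre-1157637 and -1.86 to 0.16 for piR-dre-2432. The cause of these changes was not tested. Across these alternatives piR-dre-943955 had adjusted p-values between 3.06e-13 and 0.794, and piR-dre-195477 between 3.70e-07 and 0.832.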
